A study of Mus musculus with 29 samples.

Results

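The genes described here encode 2 groups of ATP-driven ion pumps of the plasma membrane. *Atp1b1*, *Atp1b2* and *Atp1b3* encode beta subunits of the sodium-potassium pump, and *Atp2b1*, *Atp2b2*, *Atp2b3* and *Atp2b4* encode plasma membrane calcium pumps. They were chosen by name. All 7 genes were among the 24062 genes of the expression table, and all 7 were among the 14024 genes that passed a filter on low counts. Their levels were compared across 15 RNA-seq libraries, with 3 per population: bipolar cells of every type (pan-BC), the ON and OFF classes of bipolar cell (ON-BC, OFF-BC), rods and blue cones. Chromatin accessibility around them was taken from 12 ATAC-seq libraries, 2 each from these populations and from green cones.

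Bipolar cells were purified by FACS from Otx2-GFP+/- mice, which carry GFP at 1 of their *Otx2* loci, an allele that every bipolar library here shares. ON-BC and OFF-BC came from Otx2-GFP+/-; Grm6-YFP+/+ mice, in which the *Grm6* promoter drives YFP in ON cells, and OFF-BC were sorted a second time. For the ATAC-seq libraries of pan-BC the sources differ on whether the mice carried the YFP transgene. The bipolar donors were 42 to 48 days old. Rods were sorted from Nrl-eGFP mice, blue cones were photoreceptors of Nrl-eGFP;NrlKO mice, which lack the rod factor *Nrl* and stand in for true blue cones, and green cones came from Opn1mw-GFP mice, all at postnatal day 56 and all carried over from work the same group did before. Every comparison of bipolar cells with photoreceptors is therefore also a comparison of studies and ages, and these cannot be told apart from cell class. Retinas were pooled for a library, and an ON cone bipolar type with little *Grm6*, BC5D, is taken by the study to be missing from both the ON and OFF sorts.

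Counted reads ranged from 12329548 to 26266746 per RNA-seq library and from 4176776 to 12345845 per ATAC-seq library. The bipolar markers summed to between 138815 and 150934 normalised reads in pan-BC, against 1474 to 1966 in rods and 26009 to 30302 in blue cones. *Nrl* was at 11476 to 16599 normalised reads in rods and at 485.5 to 764.1 in the NrlKO photoreceptors. Photoreceptor RNA was also present in the bipolar libraries. *Nrl* in pan-BC stood at 0.905% of its level in rods, and the blue opsin *Opn1sw* in pan-BC at 3.31% of its level in blue cones. *Opn1sw* was uneven among the OFF-BC libraries, at 4477, 4314 and 55813 normalised reads, so the ON-BC against OFF-BC differences of single genes are also given without the third library. ON-BC and OFF-BC libraries of the same number came from mice of the same age (RNA-seq 43, 48 and 42 days, ATAC-seq 42 and 46 days), so a fit with the number as a block is given where it changed a call.

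The sodium-potassium pump is built of a catalytic subunit, which moves the ions, and a beta subunit, a glycoprotein that the catalytic subunit needs to reach the membrane. In photoreceptors it works mainly in the inner segment, where it expels the sodium that enters through the light-sensitive channels in darkness. Plasma membrane calcium pumps are single polypeptides that expel calcium at the cost of ATP. Neuroplastin (*Nptn*) and basigin (*Bsg*) are known as their auxiliary subunits.

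In GRCm38 coordinates, the beta subunit genes lie at chr1:164437099-164458355 (*Atp1b1*), chr11:69599728-69605978 (*Atp1b2*) and chr9:96332655-96364431 (*Atp1b3*), all on the minus strand. The calcium pump genes lie at chr10:98914630-99026143 (*Atp2b1*, plus strand), chr6:113743831-114042613 (*Atp2b2*, minus), chrX:73502749-73573275 (*Atp2b3*, plus) and chr1:133702674-133801059 (*Atp2b4*, minus).

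*Atp1b2* encodes the beta2 subunit, which is also an adhesion molecule. It was by far the most abundant of the beta subunits in every population and was highest in blue cones. The 3 pan-BC libraries held 43049, 35669 and 40526 normalised reads, the ON-BC libraries 43678, 33058 and 41552, and the OFF-BC libraries 45466, 30009 and 32557. Rods held 39350, 60681 and 56936 and blue cones 236398, 282694 and 271917. The lowest blue cone library thus stood above every library of the other populations, whereas the bipolar populations and rods overlapped. *Atp1b2* was 6.63-fold lower in pan-BC than in blue cones (log2 fold change -2.73 ± 0.23 SE, limma treat, adjusted p = 4.43e-06) and 5.11-fold lower in rods than in blue cones (log2 fold change -2.35 ± 0.23 SE, adjusted p = 0.000142). Here and below, fold changes are on the scale of log2 of the normalised read count plus 1, and the reported p-values test for a change of more than 2-fold unless another null is named. ON-BC and OFF-BC differed by 0.14 (95% interval -0.34 to 0.63, and by 0.08 without OFF-BC replicate 3), and pan-BC and rods by -0.38 (-0.86 to 0.11), neither of which passed the test. Summed markers of Müller glia and microglia were also higher in blue cones than in rods and pan-BC. The 8 Müller glia markers, all detected in every library, summed to 13818 to 17224 normalised reads there against 2111 to 3449 in rods and 7558 to 9013 in pan-BC. The 4 microglia markers summed to 266.2 to 625.4 against 37.84 to 68.08 and 13.11 to 20.8. Within the Müller glia sum *Clu* averaged 13088 in blue cones against 1147 in rods, and *Apoe* 1763 against 279.3. *Sox9* was also higher in blue cones than in rods, but *Rlbp1*, *Glul*, *Slc1a3*, *Aqp4* and *Dkk3* were lower. The part of these cells in the *Atp1b2* level was not tested. In blue cones *Atp1b2* alone took up to 1.47% of the counted reads, against 0.203 to 0.287% in the libraries of the other 4 populations. Ranked per kilobase of exon among 22511 genes, it lay at place 4 or 5 in blue cones, 23 to 32 in rods, and 35 to 85 in the bipolar populations. In bulk libraries such as these, a larger share of cells with a transcript and more of the transcript per cell cannot be told apart.

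*Atp1b1* encodes the beta1 subunit, the usual partner of the catalytic subunit in most tissues. It was low everywhere and lowest in photoreceptors. The pan-BC libraries had 63.82, 39.34 and 45.27 normalised reads, ON-BC had 23.73, 36.25 and 31.81, and OFF-BC had 25.71, 61.27 and 39.73. Rods had 5.821, 3.073 and 7.565, blue cones 6.017, 12.14 and 2.961. No photoreceptor library reached the lowest bipolar library. *Atp1b1* was 7.98-fold higher in pan-BC than in rods (95% interval of the log2 fold change 2.02 to 3.98, limma treat, adjusted p = 0.000805) and 6.92-fold higher than in blue cones (2.79 ± 0.46 SE, adjusted p = 0.00244). Rods and blue cones overlapped, and so did ON-BC and OFF-BC, which differed by -0.39 with or without OFF-BC replicate 3. Its exons overlap those of *Nme7* on the opposite strand over 202 bp. Whether counting used strand is not given in the sources used here, so reads from this overlap cannot be assigned to either gene.

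*Atp1b3*, which encodes the beta3 subunit, was the gene among the 7 that was called between ON and OFF bipolar cells. It was higher in OFF-BC, where the libraries held 149.8, 176.6 and 163.3 normalised reads, than in ON-BC, with 39.21, 17.64 and 44.12. Pan-BC lay between them at 73.39, 77.68 and 61.18. Rods held 128.1, 89.12 and 89.69 and blue cones 169.2, 206.4 and 273.1. The ON-BC and OFF-BC libraries did not overlap, and the difference was 5.07-fold (log2 fold change -2.34 ± 0.30 SE, limma treat, adjusted p = 0.00425). Without the OFF-BC library rich in *Opn1sw* it was -2.34 with an adjusted p of 0.0152. In the 6 compared libraries alone, where a block on the replicate number pairs ON-BC with OFF-BC, the call was lost (limma treat, adjusted p = 0.0532). With the block over all libraries the adjusted p was 0.00664 (limma treat). That fit also groups pan-BC and photoreceptor libraries by number, so it is not a test of the pairs alone. The 8 cone markers in OFF-BC averaged between 0.498% (*Cnga3*) and 10.5% (*Gnat2*) of their levels in blue cones, with *Opn1sw* at 1.76%, and *Atp1b3* in OFF-BC averaged 75.5% of its level there. Most of these cone markers were called higher in OFF-BC than in ON-BC. The log2 fold changes were -3.96 (*Opn1sw*), -2.2 (*Opn1mw*), -3.58 (*Arr3*), -3.68 (*Pde6h*), -3.06 (*Pde6c*) and -2.37 (*Gnat2*, the cone transducin). *Gnb3* was called lower in OFF-BC (2.81), and *Cnga3* was not called (-1.51). Summed markers of other cells moved both ways with the OFF sort. The 8 Müller glia markers summed to 9536 to 14214 normalised reads in OFF-BC against 6547 to 7773 in ON-BC. The 8 amacrine markers summed to 923.2 to 1113 against 328.3 to 485, the horizontal cell markers to 195.3 to 317.2 against 94.93 to 182.2, and the 4 microglia markers to 45.82 to 152.3 against 33.86 to 43.11. Lower in OFF-BC were the ganglion cell markers, at 60.07 to 103.7 against 245.2 to 314.5, and the endothelial markers, at 9.611 to 21.24 against 27.7 to 34.29. Within the Müller glia sum *Sox9* averaged 1400 in OFF-BC against 25.14 in ON-BC, and *Clu* 7941 against 5380. *Glul* and *Slc1a3* were also higher in OFF-BC, but *Rlbp1*, *Aqp4*, *Apoe* and *Dkk3* were lower. Among the amacrine markers *Slc6a9*, a glycine transporter, was called, with means of 566.3 for OFF-BC against 158.9 for ON-BC. It averaged more in rods (2271) and blue cones (1476), so it is not particular to amacrine cells in these libraries. *Tfap2b* (211.7 against 54.49), *Pax6* (183.9 against 113.7), *Gad2* (22.5 against 20.05) and *Gad1*, lower in OFF-BC (27.69 against 37.66), were not called. *Chat*, at 0 in every OFF-BC library, averaged only 0.9952 in ON-BC. *Tfap2b* is also counted in the horizontal cell sum. Of the other horizontal cell markers, *Onecut2* was lower in OFF-BC (37.3 against 87.2, not called). *Lhx1* and *Onecut1* averaged at most 1.881 in either class. The part of these cells in the *Atp1b3* difference was not tested.

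Ordered by mean, *Atp1b3* fell from blue cones through OFF-BC, rods and pan-BC to ON-BC. In limma against a null of no change, the neighbours blue cones and OFF-BC did not pass (adjusted p = 0.262), nor did rods and pan-BC (adjusted p = 0.127). OFF-BC and rods (adjusted p = 0.0457) and pan-BC and ON-BC (adjusted p = 0.0309) passed, but without OFF-BC replicate 3 OFF-BC and rods did not (adjusted p = 0.0846). The 2.98-fold difference between pan-BC and blue cones did not pass the test against 2-fold (log2 fold change -1.58 ± 0.30 SE, adjusted p = 0.0936), and neither did that between rods and blue cones (-1.07 ± 0.30 SE, adjusted p = 1). The former was called by edgeR (-1.61, adjusted p = 0.0112) and by limma treat on the compared libraries alone (adjusted p = 0.049).

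**Figure D1:**
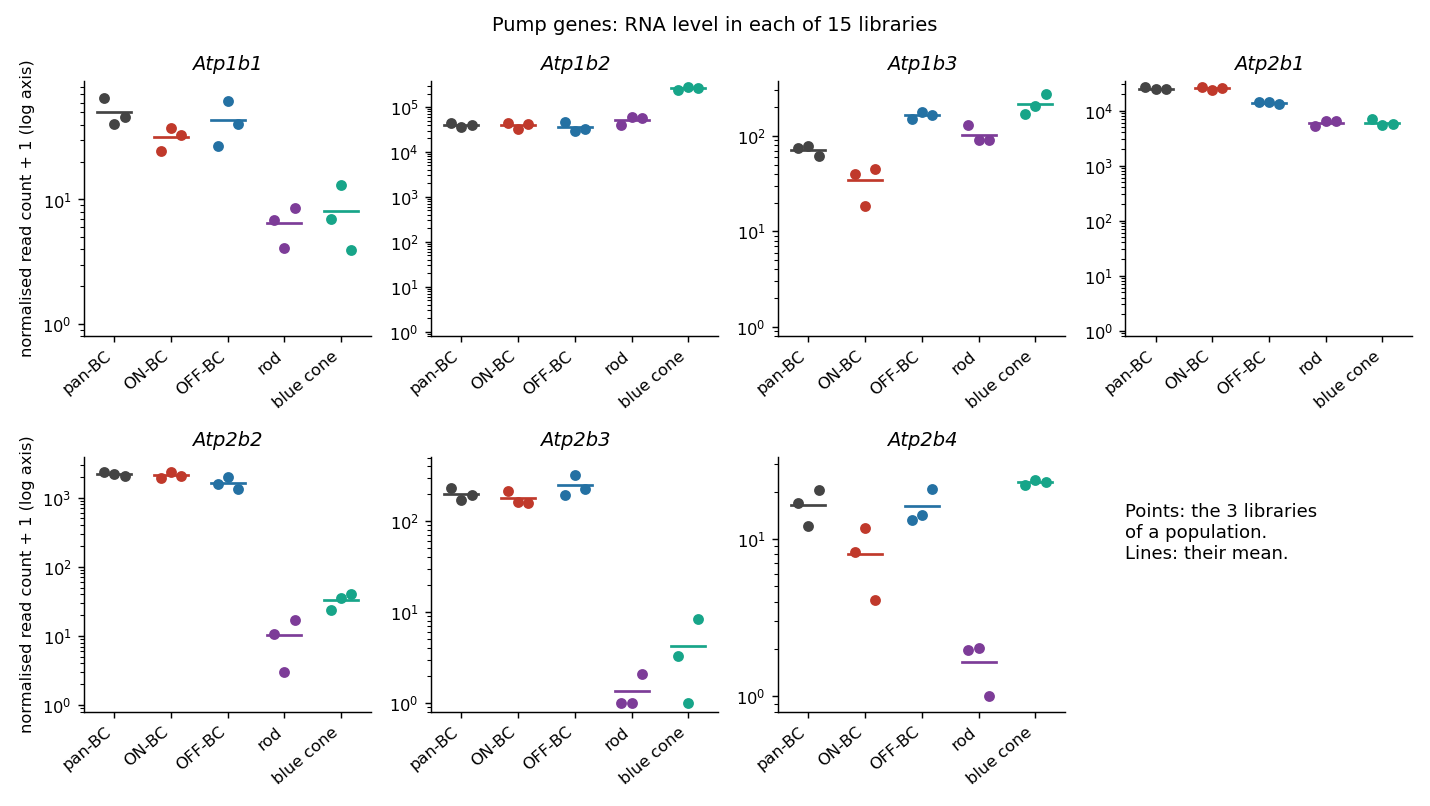
Normalised read count plus 1 (log axis) of each pump gene in the 15 RNA-seq libraries, with 3 points per population and a line at their mean. *Atp1b2* stands apart in blue cones, *Atp1b3* is lowest in ON-BC, and *Atp2b2* and *Atp2b3* lie at 1336 to 2329 and 159 to 318.4 normalised reads in bipolar cells and at no more than 39.23 and 7.401 in photoreceptors.

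Per kilobase of exon, which allows genes to be set side by side, *Atp1b2* made up 99.0 to 99.9% of the summed beta subunits in every library. *Atp1b3* supplied 0.582% ± 0.161 (SD, n = 3) of the beta subunits in OFF-BC and 0.103% ± 0.0335 in ON-BC. *Atp1b1* supplied at most 0.233% in any library.

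**Figure D2:**
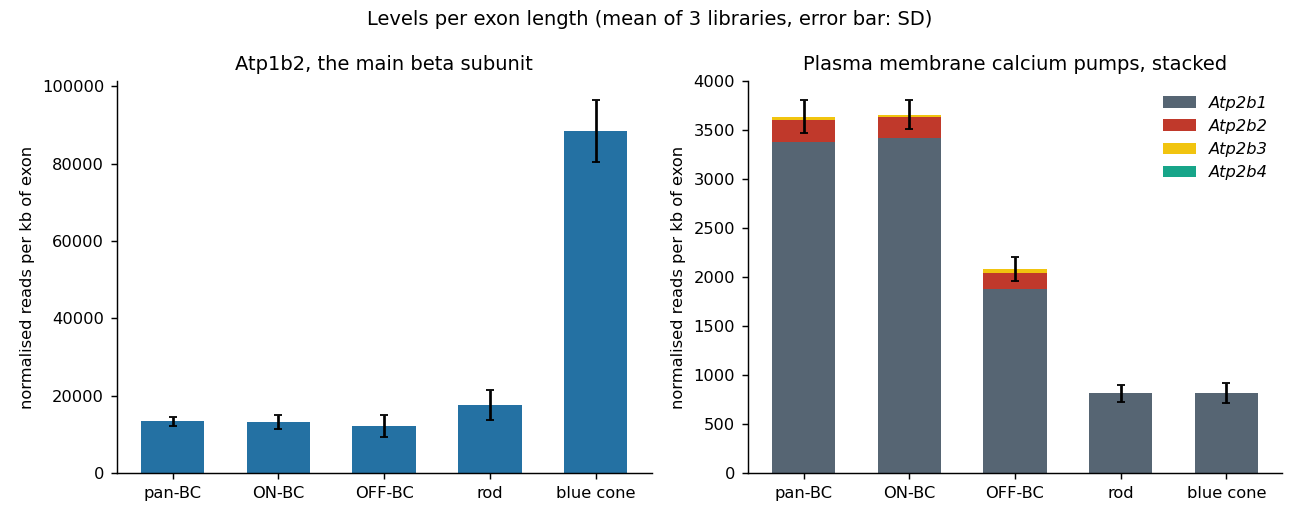
Normalised reads per kilobase of exon, as the mean of 3 libraries with the SD as error bar. On the left *Atp1b2* is shown, with its bar in blue cones far above the others. On the right the 4 calcium pumps are stacked, with totals of 3637 (pan-BC), 3659 (ON-BC), 2082 (OFF-BC), 813 (rods) and 818 (blue cones).

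*Atp2b1*, which encodes the most widely expressed plasma membrane calcium pump, was the main calcium pump transcript in all populations and was graded across them. The pan-BC libraries held 26415, 24684 and 24273 normalised reads and the ON-BC libraries 26375, 23951 and 25843. OFF-BC held 14079, 14432 and 13294, rods 5291, 6479 and 6342 and blue cones 6927, 5511 and 5659. By library the levels formed 3 steps, with no overlap between ON-BC and OFF-BC or between OFF-BC and photoreceptors. OFF-BC exceeded rods and blue cones by a log2 fold change of 1.21 each. Neither passed the 2-fold test (limma treat, adjusted p = 0.116 and 0.129), but both differed from no change (limma, adjusted p = 1.05e-07 and 1.37e-07). *Atp2b1* was 4.17-fold higher in pan-BC than in rods (log2 fold change 2.06 ± 0.12 SE, limma treat, adjusted p = 5.58e-07) and 4.18-fold higher than in blue cones (2.06 ± 0.12 SE, adjusted p = 8.75e-07). Between ON-BC and OFF-BC the difference was 1.82-fold (log2 fold change 0.87, 95% interval 0.60 to 1.13). This did not exceed the 2-fold null (adjusted p = 1), but differed from no change (limma, adjusted p = 4.73e-05), as did 27.0% of all genes tested. Without the OFF-BC library rich in *Opn1sw* the log2 fold change was 0.83. Rods and blue cones differed by 0.00 (95% interval -0.26 to 0.26), and the sign of this value changed with the scaling of the libraries.

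*Atp2b2*, whose loss causes deafness and poor balance in mice and whose product clears calcium from hair cells and neurons, was a bipolar transcript in these libraries. The pan-BC libraries reached 2317, 2195 and 2025 normalised reads, ON-BC reached 1906, 2329 and 2024, and OFF-BC 1550, 2000 and 1336. Rods had 9.702, 2.049 and 16.21, blue cones 22.56, 34.15 and 39.23. The lowest bipolar library was far above the highest photoreceptor library. Pan-BC exceeded rods by a log2 fold change of 8.04 ± 0.41 SE (limma treat, adjusted p = 9.15e-11) and blue cones by 6.08 ± 0.41 SE (adjusted p = 1.28e-08). ON-BC and OFF-BC overlapped and differed by 0.37 (95% interval -0.50 to 1.25), and by 0.24 without OFF-BC replicate 3. The higher level in blue cones than in rods (log2 fold change -1.96 ± 0.41 SE for rods against blue cones) did not pass the 2-fold test (adjusted p = 0.0952), although the libraries did not overlap and the difference from no change passed (limma, adjusted p = 0.00066). It was called against 2-fold by edgeR (-1.78, adjusted p = 0.0442) and without rod replicate 3 (-2.49, adjusted p = 0.00421).

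*Atp2b3*, the most brain-restricted of the calcium pumps, was likewise detected mainly in bipolar cells. Normalised reads for pan-BC were 230.8, 170.5 and 192.1, for ON-BC 215.7, 161.7 and 159, for OFF-BC 194.5, 318.4 and 225.1, for rods 0, 0 and 1.081, and for blue cones 2.256, 0 and 7.401. The 3 rod libraries together held 1 read of this gene, and those of blue cones 13. The ratio of normalised reads in pan-BC to rods was 579 with an exact 95% interval of 104 to 22900, which like those below covers counting error only, and that to blue cones 60.8 (35.2 to 115). On the log2 scale the differences were 7.27 ± 0.55 SE and 6.03 ± 0.55 SE (limma treat, adjusted p = 1.74e-08 and 4.72e-07). ON-BC and OFF-BC overlapped and differed by -0.44, and by -0.49 without OFF-BC replicate 3.

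*Atp2b4*, a pump found in many tissues including red blood cells, was the scarcest of the 4 calcium pumps in bipolar cells and was nearly missing from rods. Pan-BC libraries had 15.95, 11.1 and 19.58 normalised reads, ON-BC 7.223, 10.78 and 3.078, OFF-BC 12.29, 13.22 and 19.86, rods 0.9702, 1.024 and 0, and blue cones 21.06, 22.76 and 22.2. It was the calcium pump that limma treat called between the photoreceptor types. Blue cones held 88 reads and rods 2, a ratio of normalised reads of 32.3 with an exact 95% interval of 8.67 to 271, and the fitted log2 fold change of rods against blue cones was -3.86 ± 0.46 SE (limma treat, adjusted p = 7.6e-05). Pan-BC exceeded rods as well (log2 fold change 3.35 ± 0.46 SE, adjusted p = 0.000172), but not blue cones (-0.51, 95% interval -1.48 to 0.46). The microglia markers summed to 266.2 to 625.4 normalised reads in blue cones and 37.84 to 68.08 in rods, and the part of such cells in the *Atp2b4* level was not tested. ON-BC libraries all lay below OFF-BC libraries, but the difference did not pass either test (log2 fold change -1.11 ± 0.46 SE, adjusted p = 1 against 2-fold and 0.0869 against no change), and it was -0.91 without OFF-BC replicate 3.

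Over the 7 genes, 1 was called between ON-BC and OFF-BC by limma treat, where 6.55% of all genes tested were called. That call, of *Atp1b3*, was lost with the replicate block in the compared libraries alone (adjusted p = 0.0532). The ON-BC and OFF-BC libraries did not overlap for 3 of the 7 (*Atp1b3*, *Atp2b1* and *Atp2b4*), nor for 42.2% of all genes tested. In pan-BC against rods 5 of 7 were called, all higher in pan-BC, beside 43.6% of all genes in either direction and 27.8% higher in pan-BC. In pan-BC against blue cones 5 of 7 were called, 4 higher and *Atp1b2* lower in pan-BC, beside 36.3% of all genes in either direction and 22.7% higher in pan-BC. In rods against blue cones 2 of 7 were called, both higher in blue cones, beside 15.9% of all genes in either direction and 11.3% higher in blue cones. The comparisons of pan-BC with rods and with blue cones share the pan-BC libraries, so they do not count as separate evidence.

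**Figure D3:**
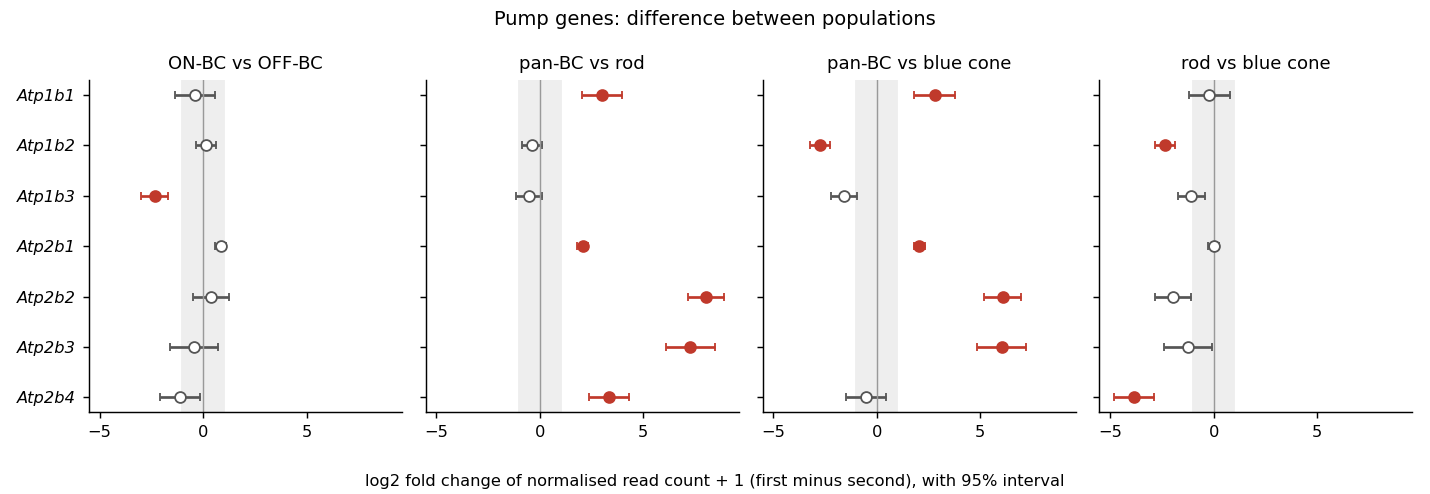
Log2 fold change of each pump gene in the 4 comparisons, first population minus second, with the 95% interval of the limma fit. Filled red points passed the test against a 2-fold change, and the grey band marks changes of less than 2-fold. The calcium pumps lie to the right in both comparisons of pan-BC with photoreceptors, except *Atp2b4* against blue cones.

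Within the calcium pumps, *Atp2b1* supplied 92.9% ± 0.179 (SD, n = 3) of the summed reads per kilobase for pan-BC, 93.3% ± 0.849 for ON-BC and 90.1% ± 1.53 for OFF-BC, against 99.9% ± 0.0908 for rods and 99.2% ± 0.234 for blue cones. *Atp2b2* supplied 6.27% ± 0.199 for pan-BC, 5.99% ± 0.888 for ON-BC and 8.15% ± 1.24 for OFF-BC, and at most 0.534% in any photoreceptor library. The shares were compared between ON-BC and OFF-BC and between rods and blue cones by an exact two-sided permutation test over libraries, 14 tests in all. With 3 libraries against 3 this exact test cannot go below p = 0.1, so no share could pass a threshold of 0.05. The smallest value was reached in 12 of the 14 tests, with an adjusted p of 0.117, among them *Atp1b3* (0.103% in ON-BC, 0.582% in OFF-BC), *Atp2b3* (0.703% and 1.70%) and *Atp2b1* (93.3% and 90.1%). Only the *Atp1b1* share in ON-BC against OFF-BC and the *Atp2b3* share in rods against blue cones gave p = 0.4 in the exact test.

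The genes whose level across the 15 libraries was most like that of each pump were found by Pearson's r of log2 of the normalised read count plus 1. The libraries of a population share most of this variation, so r is given as a description over 15 points in 5 clusters. For *Atp1b2* they were *Spop* (r = 0.991), *Rnf14* (0.990) and *Usp43* (0.983), and for *Atp1b1* *Etl4* (0.968), *Abca9* (0.963) and *St6galnac3* (0.961). For *Atp1b3* they were *Nudt17* (0.952), *B3glct* (0.937) and *Htra1* (0.932). For *Atp2b1* they were *Efr3b* (0.992), *Rnf152* (0.992) and *Gsta4* (0.990), all of which, like *Atp2b1*, were lower in OFF-BC than in ON-BC by mean. For *Atp2b2* they were *Igf1*, *Cpt1c* and *Trpc4* (0.996 each), for *Atp2b3* *Kcnj6* (0.995), *Mgat3* (0.992) and *Pak3* (0.992), and for *Atp2b4* *Shisa7* (0.969), *Krt222* (0.951) and *Bmp1* (0.949).

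Other genes of sodium and calcium transport gave a background to the 7 genes. Of 30 listed genes, 20 passed the filter on low counts. Between ON-BC and OFF-BC 2 of these 20 were called by limma treat, beside 6.55% of all genes tested. The potassium-dependent sodium-calcium exchanger *Slc24a4* was higher in ON-BC (1289 to 1612 against 262.6 to 301.6 normalised reads, log2 fold change 2.34 ± 0.12 SE, adjusted p = 6.32e-07). The endoplasmic reticulum calcium pump *Atp2a3* was lower in ON-BC (1.96 to 9.234 against 20.12 to 103.3, -3.25 ± 0.66 SE, adjusted p = 0.0296). The number called was sensitive to single libraries, and 1 gene in place of 2 was called without ON-BC replicate 1, ON-BC replicate 2, OFF-BC replicate 2 or OFF-BC replicate 3.

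In pan-BC against rods 11 of the 20 listed genes were called, 9 higher in pan-BC and 2 higher in rods, beside 43.6% of all genes tested. The 4 with the largest differences were all exchangers: *Slc24a3* (log2 fold change 7.88), *Slc8a1* (7.82) and *Slc24a4* (6.04) were higher in pan-BC, and the rod exchanger *Slc24a1* (-6.54) was higher in rods. In pan-BC against blue cones 7 of the 20 were called, 5 higher in pan-BC, beside 36.3% of all genes tested. Those called were led by *Slc8a1* (5.96) and *Slc24a3* (5.80), by *Slc24a2*, the cone exchanger, which was higher in blue cones (-2.95), and by *Fxyd6*, whose product modulates the sodium-potassium pump, and *Calm3* (2.49 each). In rods against blue cones 5 of the 20 were called, 1 higher in rods, beside 15.9% of all genes tested. Those called were led by *Slc24a1* (7.12), and by *Slc24a2* (-7.00), *Slc24a4* (-6.21) and *Slc8a3* (-2.39), which were higher in blue cones. *Slc24a1* held 33358 to 51424 normalised reads in rods, where *Atp2b1* held 5291, 6479 and 6342. The auxiliary subunits *Nptn* and *Bsg* were not called in any comparison. The median log2 fold change of the 20 genes was 1.34 in pan-BC against rods, where that of all genes tested was 0.21, and 5.31 for the 4 plasma membrane calcium pumps.

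**Figure D4:**
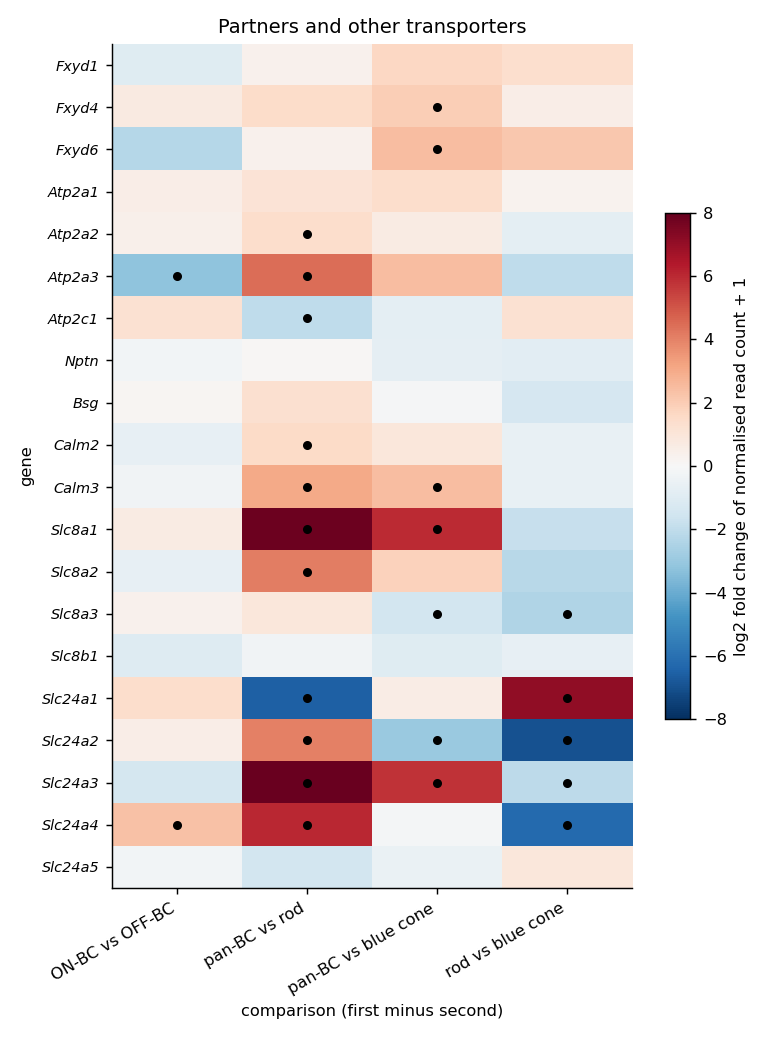
Log2 fold change of the 20 other transport genes tested, by comparison, first population minus second, with red for higher and blue for lower in the first. Black dots mark genes that passed the test against 2-fold. *Slc24a1* is blue and *Slc8a1* and *Slc24a3* are red in pan-BC against rods.

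Accessibility was examined in 62 of the 110715 regions of 200 bp, those whose nearest annotated transcription start site (TSS) was that of a pump gene. *Atp2b1* had 23 of them, *Atp2b2* 17, *Atp1b3* 10, *Atp1b1* and *Atp2b4* 4 each, and *Atp1b2* and *Atp2b3* 2 each. By the RefSeq annotation of GRCm38, 8 overlapped an exon, 32 were intronic and 22 intergenic, and 61 passed the filter on low counts. Between ON-BC and OFF-BC 4 were called (limma treat), beside 7.39% of all regions tested. Between pan-BC and rods 35 were called, 30 of them higher in pan-BC, beside 51.6% of all regions. Pan-BC against blue cones gave 27 (35.9% of all regions), pan-BC against green cones 25 (32.1%), and rods against blue cones 5, all higher in blue cones (8.56% of all regions were higher there).

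The promoters did not all follow the RNA. The *Atp1b1* promoter region, 55 bp before the TSS, was nearly closed in rods, at 4.67 and 10.8 normalised reads, and held 50.5 and 57.1 in blue cones, 55.3 and 49.3 in green cones, and no less than 65.2 in any bipolar library. Pan-BC against rods (log2 fold change 3.69 ± 0.38 SE, limma treat, adjusted p = 6.28e-06) and rods against blue cones (-2.74 ± 0.38 SE, adjusted p = 0.00246) were called, while the RNA of *Atp1b1* overlapped between blue cones and rods. The rod against blue cone call was lost without rod replicate 1 (-2.21, adjusted p = 0.0557). The *Atp1b2* promoter region, 19 bp before the TSS, was highest in rods, at 496 and 465 normalised reads, against 357 and 311 in blue cones and 193 and 155 in pan-BC. It was called between pan-BC and rods (log2 fold change -1.47), but not without pan-BC replicate 2, rod replicate 1 or rod replicate 2 (adjusted p = 0.163, 0.108 and 0.0584) nor with scaling to the library total (0.131). Rods lay 0.53 above blue cones there, a difference that was not called, while *Atp1b2* RNA was 5.11-fold lower in rods. At *Atp2b1* 2 start sites are annotated. The region 277 bp before the upstream site held 765 and 790 in pan-BC against 379 and 359 in rods, and that 64 bp before the downstream site held 209 and 277 in pan-BC against 496 and 499 in rods. These opposite differences, 1.07 and -1.04, did not pass the 2-fold test, but both differed from no change (limma, adjusted p = 3.2e-06 and 1.59e-05).

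Regions away from the promoters held the sharpest contrasts at *Atp2b1*. An intronic region 33801 bp beyond the nearest TSS held 224 and 237 normalised reads in ON-BC, 161 and 179 in pan-BC, 2.69 and 17.5 in OFF-BC, and at most 6.15 in any photoreceptor library. ON-BC exceeded OFF-BC there by a log2 fold change of 4.81 (limma treat, called), and pan-BC exceeded rods by 6.35. The ON-BC call was lost without OFF-BC replicate 1 (log2 fold change 3.64, adjusted p = 0.0793). An intergenic region 272146 bp upstream, with 50.8 and 65.9 in ON-BC and 2.69 and 5.84 in OFF-BC, was called as well (3.55), but not under the other scalings of the libraries nor without ON-BC replicate 1, ON-BC replicate 2 or OFF-BC replicate 1 (adjusted p = 0.0674 to 0.199). The opposite pattern was seen in an intergenic region 12916 bp upstream, where rods held 150 and 122, blue cones 92 and 105 and green cones 86.1 and 73.2, with no more than 11.7 in any bipolar library. It was called in pan-BC against rods (-4.47), blue cones (-4.01) and green cones (-3.71). Of the 23 *Atp2b1* regions, 8 were called higher and 4 lower in pan-BC against rods. Of all regions tested, 51.6% were called there in either direction and 40.3% higher in pan-BC.

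At *Atp1b3*, an intronic region of the neighbouring gene *Tfdp2*, 49299 bp beyond the TSS, was open mainly in OFF-BC. It held 39.1 and 23.4 normalised reads there, 0 and 2.93 in ON-BC, 5.6 and 7.98 in pan-BC, and at most 3.07 in photoreceptors. The difference of ON-BC from OFF-BC, -3.98, was called by limma but not by DESeq2 (adjusted p = 0.269), nor without ON-BC replicate 1 or OFF-BC replicate 1 (adjusted p = 0.209 and 0.12). A nearby intergenic region 36536 bp beyond the TSS had the reverse order, with 74.7 and 55.6 in ON-BC and 5.39 and 13.6 in OFF-BC, but was not called between them. It was called in pan-BC against rods, where both rod libraries were at 0. The promoter itself, 16 bp past the TSS, held 302 and 240 in ON-BC and 410 and 383 in OFF-BC.

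At *Atp2b2* 15 of 17 regions were called higher in pan-BC than in rods, where 40.3% of all regions were. An intronic region 30310 bp beyond the nearest TSS held 142 and 138 normalised reads for pan-BC, 194 and 170 for ON-BC, and 164 and 165 for OFF-BC, against 2.71 to 14.2 in photoreceptors. Of its 17 regions 12 were called higher in pan-BC than in blue cones (28.8% of all regions) and 12 higher than in green cones (24.1%). Between ON-BC and OFF-BC the log2 fold changes of the 17 ran from -1.16 to 2.42, and the lowest adjusted p was 0.137 (limma treat). None was called higher in a photoreceptor type than in pan-BC. Neither region of *Atp2b3* was called in any comparison (limma treat, lowest adjusted p 0.278), although its RNA differed between the classes. Neither is a promoter region. They lie at -9281 bp, in an intron of *Bgn*, and at 67993 bp from the TSS, so its promoter was not measured here. At *Atp2b4* a region at the 5′ end of the annotated gene, 47356 bp before the start of its curated transcripts and so counted as intergenic, held 174 and 180 in blue cones, 116 and 118 in green cones, 53.7 and 68.4 in rods, 59.3 and 54.5 in OFF-BC and 11.9 and 8.78 in ON-BC. OFF-BC exceeded ON-BC (-2.36) and blue cones exceeded pan-BC (-2.82), both called by limma treat, the former not by DESeq2 (adjusted p = 0.0694). Rods and blue cones were not called apart there. At *Atp1b1* a region within an intron of *Nme7*, 66006 bp from the *Atp1b1* TSS, held 72.8 and 69.0 in pan-BC and at most 11.3 in any photoreceptor library.

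**Figure D5:**
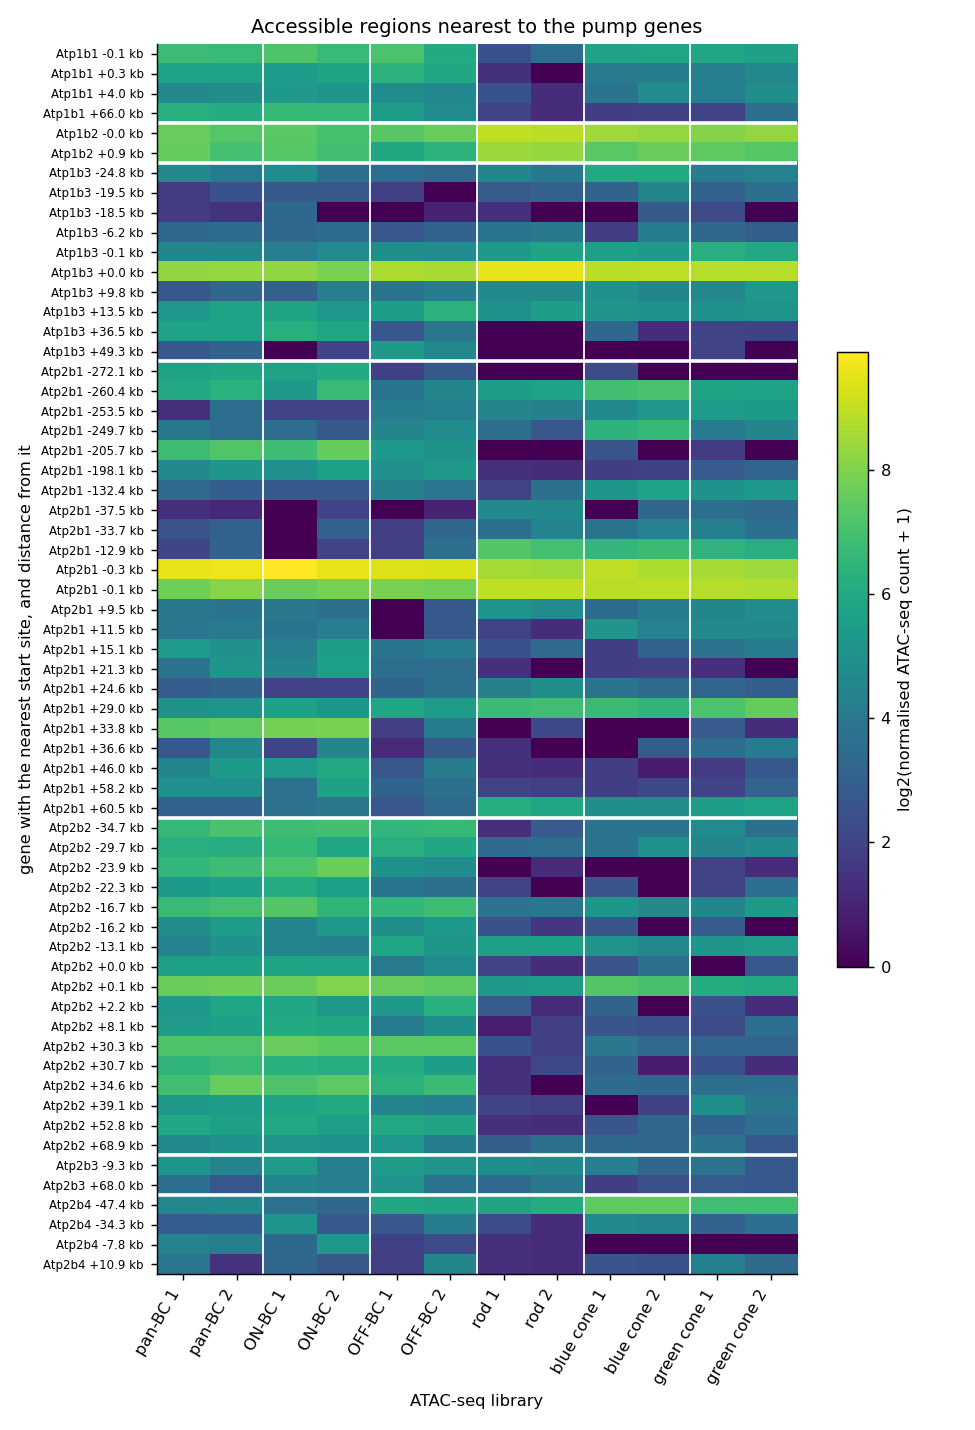
Log2 of the normalised ATAC-seq count plus 1 in the 62 regions nearest to the pump genes (rows, with the distance from the TSS in kb) in the 12 libraries (columns, 2 per population). The *Atp2b2* rows are bright in the 6 bipolar columns and dark in most photoreceptor columns, and the *Atp2b1* row at +33.8 kb is brightest in pan-BC and ON-BC.

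The sequences of 6 of these regions, chosen after their values were seen, are given because each carries a contrast described above: open in ON-BC, in photoreceptors, in all bipolar cells (2 regions), in ON-BC and pan-BC, or in OFF-BC. They were read from the plus strand of GRCm38. Capitals mark each TAATCC on either strand, the K50 homeodomain motif bound by OTX2 and CRX, and each CANNTG, the E-box motif bound by bHLH factors. The Q50 homeodomain motif is given by the study as TAATT followed by A or G. Only its TAATTA form was searched, and that form is in none of the 62 regions.
Atp2b1 +33801, chr10:98948853-98949052: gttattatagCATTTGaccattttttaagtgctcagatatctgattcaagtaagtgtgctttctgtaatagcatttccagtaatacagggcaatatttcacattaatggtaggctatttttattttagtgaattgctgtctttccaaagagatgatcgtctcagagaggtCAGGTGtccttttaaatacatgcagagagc
Atp2b1 -12916, chr10:98901626-98901825: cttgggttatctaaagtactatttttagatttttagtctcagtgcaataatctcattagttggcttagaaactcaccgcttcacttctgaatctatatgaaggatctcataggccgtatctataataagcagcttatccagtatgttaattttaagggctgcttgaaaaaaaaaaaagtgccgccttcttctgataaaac
Atp2b2 +30310, chr6:113861129-113861328: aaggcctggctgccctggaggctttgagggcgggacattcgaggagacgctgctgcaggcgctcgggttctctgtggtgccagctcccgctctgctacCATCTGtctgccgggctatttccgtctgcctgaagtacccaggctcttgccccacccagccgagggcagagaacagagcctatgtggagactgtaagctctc
Atp1b1 +66006, chr1:164392249-164392448: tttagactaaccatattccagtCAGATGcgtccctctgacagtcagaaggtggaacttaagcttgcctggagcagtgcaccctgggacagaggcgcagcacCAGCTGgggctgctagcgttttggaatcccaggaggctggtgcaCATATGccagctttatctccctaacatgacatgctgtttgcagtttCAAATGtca
Atp1b3 +36536, chr9:96327079-96327278: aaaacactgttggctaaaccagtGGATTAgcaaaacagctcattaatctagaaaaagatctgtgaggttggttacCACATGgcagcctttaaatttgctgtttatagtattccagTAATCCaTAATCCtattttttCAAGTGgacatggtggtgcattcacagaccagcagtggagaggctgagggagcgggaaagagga
Atp1b3 +49299, chr9:96314316-96314515: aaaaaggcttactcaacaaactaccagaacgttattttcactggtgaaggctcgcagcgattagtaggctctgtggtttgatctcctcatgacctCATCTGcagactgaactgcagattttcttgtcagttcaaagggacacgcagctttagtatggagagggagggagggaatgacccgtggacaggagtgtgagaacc

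The *Atp1b3* region open in ON-BC and pan-BC held 3 matches to TAATCC, with a pair of them 1 base apart, and the other 5 regions held 0. The *Atp1b1* region held 4 E-boxes, and the *Atp2b1* region open in photoreceptors held no match to any of the 3 motif forms searched. Of all 110715 regions, 21.8% held TAATCC, 5.2% TAATTA and 68.7% CANNTG on either strand. Of the 62 regions of the pump genes, 15 (24.2%) held TAATCC and 43 (69.4%) CANNTG. Of the 30 regions called higher in pan-BC against rods, 6 held TAATCC (20.0%, beside 20.1% of all regions so called), as did 3 of the 5 called higher in rods (beside 37.1%). The comparison of shares is a description with no test. A match describes the letters and does not show that a factor binds.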

How the data were processed

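RNA-seq of 15 libraries and ATAC-seq of 12 were compared. The authors aligned RNA reads with STAR and ATAC reads with Bowtie2 to GRCm38 and counted reads per gene (HTSeq) or per 200 bp region. The deposited tables hold read counts divided by 1 size factor per library, a normalised signal, and not raw counts. Values were whole multiples of 1 read within 0.01 of a read for 100% of 230384 RNA and 1212862 ATAC values above 0, which gave the depth. Whether counting used strand is not given in the sources used here.

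Differences were tested with limma 3.58.1 (R 4.3.3) on log2(value + 1), all libraries of an assay in 1 fit, by treat against a log2 fold change of 1 with Benjamini-Hochberg adjustment at 0.05. A filter on low counts left 14024 genes and 108448 regions. The design provided for raw counts too, which the tables do not hold. A region was assigned to the gene of the nearest curated RefSeq TSS. Shares within a family used reads per kilobase of exon and an exact permutation test. Alternatives used edgeR 4.0.16 and DESeq2 1.42.0 on recovered reads, other pseudocounts, scalings, no filter, a null of 0, replicate blocks and leaving out each library. The test was checked on simulated data.

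The genes, lists and tests were chosen with earlier results of these data known. All 7 pump genes are named, and of the other lists the 4 called genes with the largest difference in each comparison, with *Nptn* and *Bsg* named in addition after their values were seen. Some genes of the lists are not reported here and enter none of the list counts. ON-BC and OFF-BC libraries of the same number share a donor age in the labels. The main fits had no block, and such libraries were paired only in the alternative fits with a replicate block. The deviations of such RNA-seq pairs from their group means correlated at -0.0763, 0.222 and -0.0649. Replicates differed by more than counting error (chi-square per feature 6.72 to 62.4 in RNA, 1.94 to 4.19 in ATAC). Each library pools retinas, and where separate animals are not stated the p-values measure only the spread between libraries.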

Additional observations from a re-analysis of the deposited data

How the results depend on the processing

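Of 476 alternative values of the 7 genes' RNA fold changes, 459 kept their direction and side of the threshold. The sign changed for *Atp2b1* in rods against blue cones (0.00), which was -0.01 with TMM scaling, -0.06 with scaling to the library total and -0.06 to 0.11 when 1 library was left out, and for *Atp1b1* in the same comparison (-0.21), which spanned -0.63 to 0.23 when 1 library was left out (0.23 with blue cone replicate 2 omitted). Among promoters, the sign changed for *Atp2b1* at -64 bp in ON-BC against OFF-BC (-0.21 to 0.01 when 1 library was left out), *Atp1b1* at -55 bp there (-0.17 to 0.88), *Atp1b3* at -137 bp in rods against blue cones (0.00 with TMM, -0.26 with the library total, -0.16 to 0.31 when 1 library was left out) and *Atp2b1* at -64 bp there (0.00 and -0.27). The cause was not tested.

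With a null of 0, 2 of the 7 genes passed in ON-BC against OFF-BC and 4 in rods against blue cones, and of the 20 transport genes 10 passed in ON-BC against OFF-BC, 16 in pan-BC against blue cones and 17 in rods against blue cones. Of all 14024 genes tested, 3783 passed in ON-BC against OFF-BC, 10704 in pan-BC against blue cones and 8068 in rods against blue cones. A pseudocount of 0.5 gave 1 transport gene in ON-BC against OFF-BC, and edgeR gave 8 in rods against blue cones. Leaving out 1 library gave 1 to 2 transport genes in ON-BC against OFF-BC. Of the 62 regions, ON-BC against OFF-BC gave 8 with edgeR, 17 with a null of 0 and 1 to 6 when 1 library was left out (1 without OFF-BC replicate 1). Pan-BC gave 44 against blue cones and 41 against green cones with a null of 0, and 16 to 20 against green cones when 1 library was left out (16 without pan-BC replicate 2). Rods against blue cones gave 3 with a pseudocount of 5, 8 with TMM, 9 with the library total, 10 with edgeR, 21 with a null of 0 and 4 to 7 when 1 library was left out.

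With the replicate block and the compared libraries alone, 0 of the 7 genes were called between ON-BC and OFF-BC. The *Atp1b3* value of -2.34 then had an adjusted p of 0.0532 (limma treat). It was 0.00664 with the block over all libraries, which also groups pan-BC and photoreceptor libraries by number. The block changed no other RNA call of the 7 genes, and over the ATAC regions named it was run on all libraries only. Over all alternatives tested against 2-fold, the adjusted p of *Atp1b3* in ON-BC against OFF-BC ran from 0.000319 (DESeq2) to 0.0532 (limma treat). Against a null of 0 it was 1.53e-05 (limma).

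Over all genes, a null of 0 gave 3783 calls in ON-BC against OFF-BC (919 against 2-fold), 11156 in pan-BC against rods (6112), 10704 in pan-BC against blue cones (5092) and 8068 in rods against blue cones (2231). Over all regions, ON-BC against OFF-BC gave 13665 with edgeR, 4762 with DESeq2 and 26416 with a null of 0, against 8010. Rods against blue cones gave 18414 with edgeR and 37557 with a null of 0, against 10871, and pan-BC gave 66171 against blue cones and 65635 against green cones with a null of 0. When 1 library was left out, ON-BC against OFF-BC gave 4986 regions without ON-BC replicate 2 and 4175 without OFF-BC replicate 1, rods against blue cones gave 7091 without blue cone replicate 1, and pan-BC against green cones gave 20967 without pan-BC replicate 2, against 34863. With scaling to the library total the share of RNA calls higher in pan-BC than in rods was 74% in place of 63.8%, and the median of all genes moved from 0.21 to 0.55. The share of ATAC calls higher in ON-BC than in OFF-BC was 62.1%, 50.8% with TMM and 46.7% with the library total. Genes with few reads, such as *Atp2b3* and *Atp2b4* in rods, limit the precision of the ratios.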
